A study of Homo sapiens with 8 samples.

Results

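This comparison asked what a BET degrader did to gene expression in cholangiocarcinoma (CCA) cells that also received an mTOR inhibitor. RNA-Seq libraries of cells given both drugs, BETp + mTORi, were set against libraries of cells given the mTOR inhibitor alone, mTORi, within each of the CCA cell lines SNU1079 and SSP25. These were 4 of the 8 libraries in the series, chosen by their treatment labels. The other 4, vehicle and BETp alone in the same lines, entered the fit and served as the comparison without mTORi. BETp was ARV825 at 40 nM, mTORi was AZD8055 at 50 nM, and vehicle was 0.01% DMSO. All treatments lasted 48 hours. For BETp + mTORi the labels name no doses, and they give the genotype of both lines as wild type. The study's own sequencing of cancer genes, however, found mutations of IDH1 and ARID1A in SNU1079. Each line had 1 library per treatment, so the 2 lines served as replicates. The p-values measure how far the treatment differences disagreed between the lines, over all treatments, and not the spread between cultures of 1 line. The spread of each gene was also drawn towards that of other genes.

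BET proteins, among them BRD2, BRD3 and the testis protein BRDT, bind acetylated histones through their bromodomains and help RNA polymerase II leave the promoter. ARV825 is a proteolysis-targeting chimera: one end binds BET bromodomains and the other binds cereblon, a ubiquitin ligase receptor, so that the BET protein is tagged and degraded. mTOR is a kinase that raises protein synthesis, ribosome production and growth when nutrients and growth factors are present, and AZD8055 blocks its activity in both of its complexes. Both drugs act on proteins, so the mRNA levels below do not measure how well either drug hit its target.

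The deposited values were TPM, a share of all transcripts scaled by gene length. TPM keep no read depth, so the depth of a library and the counting error of a low value are unknown. Of the 9 cholangiocyte markers, 8 were at 1 TPM or more in the mTORi and BETp + mTORi libraries of SNU1079 and 7 in those of SSP25. CFTR was under 1 TPM in both lines. Endothelial markers were all under 1 TPM in these 4 libraries, and CD68 was the only blood marker above it. In bulk RNA of a cell line, fewer cells in a given state and less RNA per cell cannot be told apart. The RNA of the mitochondrial genome took 15.3% of all TPM in the mTORi library of SNU1079 and 19.2% in its BETp + mTORi library. In SSP25 these shares were 8.64% and 10.1%. Because TPM sum to a fixed total, a larger share for these genes leaves a smaller one for all others, and differences were read against the median of all genes, -0.08 on the log2(TPM + 1) scale.

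Adding BETp to mTORi left few genes past the test. Of 16060 genes tested with limma, 2 rose (0.0125%) and 0 fell (0.0%) at a Benjamini-Hochberg adjusted p under 0.05. At an unadjusted p under 0.05, 554 genes were higher (3.45%) and 1591 lower (9.91%). The settings under which the called count changed are given in the closing section, where it ran from 0 to 8. In both lines together, 3208 genes (20.0%) were higher in BETp + mTORi than in mTORi and 6199 (38.6%) were lower, while 5541 (34.5%) had opposite signs. At least 2-fold in both lines, 49 genes were higher (0.305%) and 39 lower (0.243%). The differences of the 2 lines had a correlation of 0.244 across genes, a description only, since genes are not independent replicates.

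**Figure D1:**
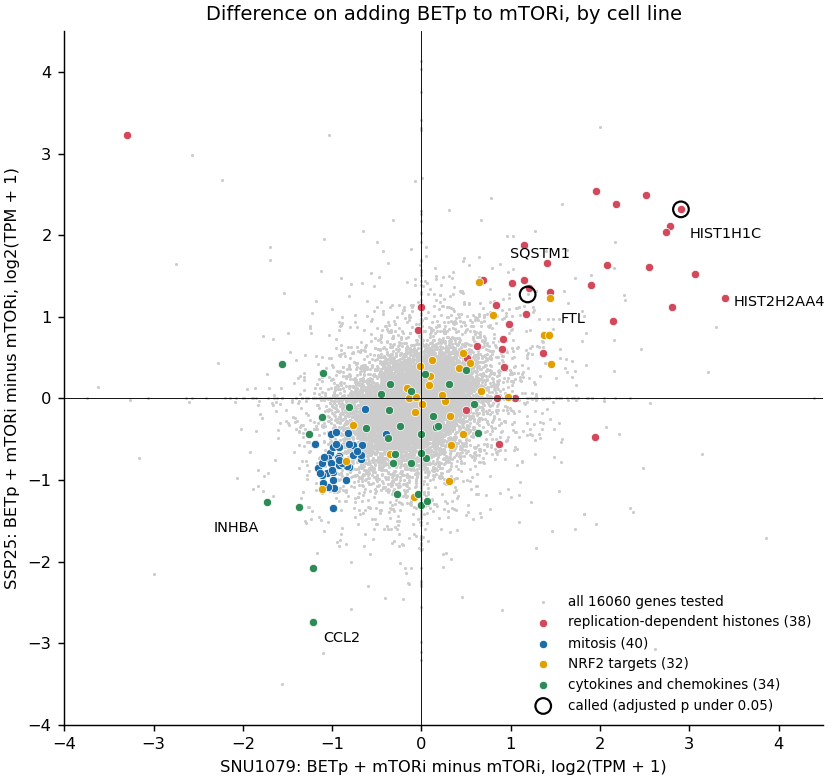
Difference in log2(TPM + 1) between BETp + mTORi and mTORi in SNU1079 (horizontal) and SSP25 (vertical), 1 point per gene for the 16060 genes tested. Most histone genes lie at the upper right and the 40 mitosis genes at the lower left, while NRF2 targets and cytokines spread more widely, and 8 genes lie outside the axes.

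The genes that rose were SQSTM1 and HIST1H1C. SQSTM1 encodes p62, a receptor that carries ubiquitin-tagged cargo into autophagosomes and binds KEAP1, the brake on the transcription factor NRF2. It lies at chr5:179233398-179265078 of GRCh37 on the plus strand. SQSTM1 measured 686.32 TPM with mTORi and 1566.14 TPM with BETp + mTORi in SNU1079. In SSP25 it measured 2066.15 and 4997.87 TPM. The BETp + mTORi library was the higher one in each line, and the lines differed from each other in level more than the treatments did. The difference was 1.23 ± 0.09 (SE, limma) on the log2(TPM + 1) scale, adjusted p = 0.0306, with 1.19 in SNU1079 and 1.27 in SSP25. Without mTORi SQSTM1 measured 869.41 TPM (vehicle) and 1852.00 TPM (BETp) in SNU1079, and 2526.01 and 4828.65 TPM in SSP25.

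HIST1H1C encodes the linker histone H1.2, which binds the DNA between nucleosomes. It lies at chr6:26055968-26056698 of GRCh37 on the minus strand. HIST1H1C measured 43.75 TPM with mTORi and 334.38 TPM with BETp + mTORi in SNU1079, and 40.85 and 207.54 TPM in SSP25. The difference was 2.61 ± 0.20 (SE, limma), adjusted p = 0.0306, with 2.91 in SNU1079 and 2.32 in SSP25. Vehicle libraries held 72.69 and 42.17 TPM and BETp libraries 298.56 and 146.37 TPM in SNU1079 and SSP25, so both libraries given BETp stood above both libraries without it in each line. Both calls were lost under several settings. With any 1 of the 8 libraries left out, the adjusted p of SQSTM1 (limma) ran from 0.0585 to 0.293, so it was not called in any of these 8 fits. That of HIST1H1C (limma) ran from 0.00482, without the mTORi library of SSP25, to 0.293, and it was called in that fit alone.

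Of the 12 leading genes on the high side, 10 were histone genes, beside SQSTM1 and IFITM10, a member of the interferon-induced transmembrane family. The 10 include HIST2H3A and HIST2H3C, which carried identical values and so are not separate measurements. IFITM10 measured 0.72 and 5.40 TPM in SNU1079 and 4.19 and 13.76 TPM in SSP25 with mTORi and BETp + mTORi (difference 1.70 ± 0.22, adjusted p = 0.0863 by limma). It was not called. On the low side none of the 12 leading genes was called. INHBA, the subunit of activin A, measured 145.72 and 55.61 TPM in SNU1079 and 12.83 and 4.48 TPM in SSP25 (adjusted p = 0.0845, limma). SCG5, a chaperone of the secretory pathway, went from 22.81 to 8.61 and from 72.05 to 24.84 TPM (adjusted p = 0.0518, limma). In both genes the BETp + mTORi library was under that of mTORi in each line, with log2 differences of -1.31 or lower.

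The other leading low genes included EBI3, a subunit of interleukins 27 and 35, at 8.90 and 3.03 TPM in SNU1079 and 6.90 and 1.74 TPM in SSP25. LGALS9, which encodes galectin-9, measured 24.35 and 10.04 TPM in SNU1079 and 12.63 and 2.22 TPM in SSP25. COL16A1, a collagen chain, measured 5.11 and 1.61 TPM in SNU1079 and 57.64 and 21.60 TPM in SSP25. CCL26, CCL2, CSF2, EVI2A and LINC00313 made up the rest, together with VTRNA2-1 and TUG1_1, which stood first in that order. Those last 2 are short RNA entries, a vault RNA and a segment of the lncRNA TUG1, that were listed at 0 in both BETp + mTORi libraries. VTRNA2-1 was listed at 50.44 and 28.25 TPM in the mTORi libraries and at 0 in the vehicle library of SNU1079 and in both BETp libraries. TUG1_1 was listed at 24.46 and 26.70 TPM with mTORi. EFEMP1, an extracellular matrix glycoprotein, fell outside the rule because its symbol ends like that of a pseudogene and was chosen after its values were seen. It measured 23.25 and 9.10 TPM in SNU1079 and 21.60 and 7.96 TPM in SSP25 (adjusted p = 0.0518, limma).

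**Figure D2:**
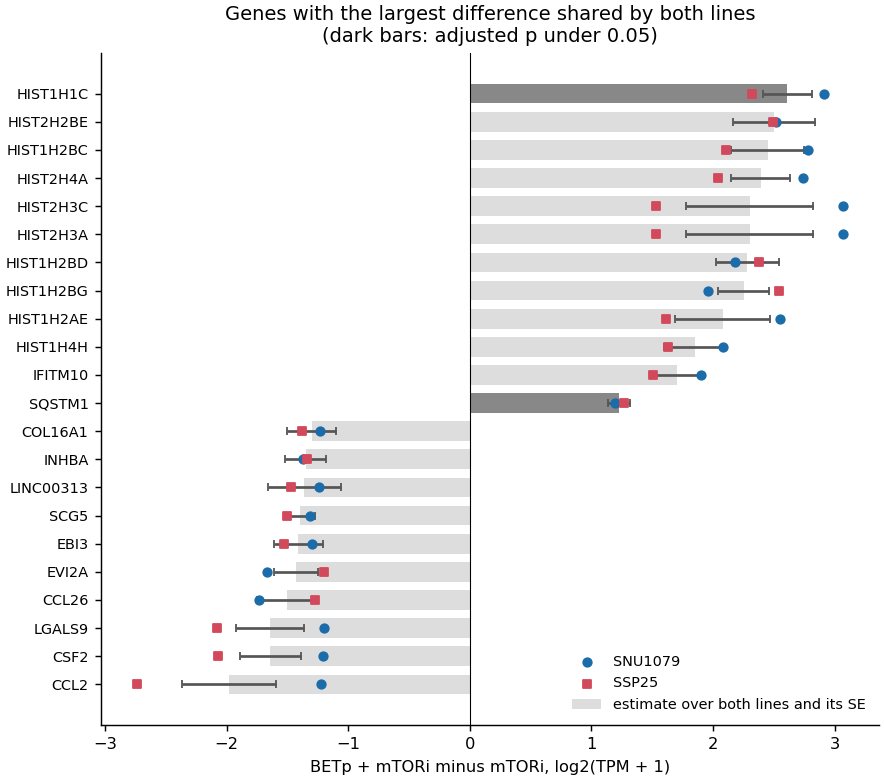
Difference in log2(TPM + 1) between BETp + mTORi and mTORi for 22 of the 24 leading genes, without the 2 listed at 0 in both BETp + mTORi libraries. Bars give the limma estimate with its SE and points give each line: HIST1H1C and SQSTM1 (dark bars) were called, and the points of both lines lie on the same side of 0 for every gene shown.

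Replication-dependent histone genes were the list with the highest median of those described. These genes supply the core histones H2A, H2B, H3 and H4 and the linker H1 for new chromatin in S phase, and their mRNAs normally end in a stem-loop in place of a poly(A) tail. How RNA was selected for the libraries was not examined, so the values may cover only part of the histone mRNA of the cells. Of 70 such genes in the tables, 38 passed the filter of 1 TPM in at least 2 libraries and 1, HIST1H1C, was called. Among the 38, 30 were higher in both lines and 0 lower in both, beside 20.0% and 38.6% of all genes tested. Of these 38 histone genes, 28 had an unadjusted p under 0.05 on the high side (3.45% of all genes, limma). At least 2-fold higher in both lines were 20 of these histone genes (0.305% of all genes). Their median difference was 1.25, with 1.19 in SNU1079 and 1.27 in SSP25, beside -0.08 over all genes tested, and it ran from 1.16 to 1.37 with 1 library left out and was 1.88 with a pseudocount of 0.1. A gene that passed the filter only through libraries where it is high had to differ, so the genes at 1 TPM or more in both mTORi libraries were counted apart. Of those 20, 19 were higher in both lines, with a median of 1.54, beside 2470 of 11985 genes in all. Over all 70, filter aside, 32 were higher in both lines and 1 lower, and 33 were under 1 TPM in all 4 libraries.

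The summed TPM of the 70 histone genes was 345 with mTORi and 1500 with BETp + mTORi in SNU1079, and 517 and 1580 in SSP25. Vehicle libraries held 544 (SNU1079) and 409 (SSP25), and BETp libraries 1470 and 1250. In each line the libraries with BETp therefore had a higher summed histone TPM than those without it, whether or not mTORi was given. This order, both BETp libraries above both others in both lines, held for 25 of the 38 tested genes (65.8%) and for 4.27% of all genes tested. Some of the 38 passed the filter only through BETp libraries, which favours this order. Among genes at 1 TPM or more in both mTORi libraries it held for 17 of 20 histone genes (85.0%) and for 503 of 11985 genes in all (4.2%). The median effect of BETp without mTORi was 1.02.

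Of 11 H2B genes tested, 11 were higher in both lines, with a median of 1.51 and a range from 0.50 to 2.50. Some of them passed the filter only through libraries with BETp, and of the 8 at 1 TPM or more in both mTORi libraries 8 were higher, with a median of 1.90. HIST2H2BE, an H2B gene whose transcripts can be polyadenylated, measured 3.72 and 26.02 TPM in SNU1079 and 6.50 and 41.21 TPM in SSP25 with mTORi and BETp + mTORi (adjusted p = 0.0949, limma). HIST1H2BD measured 12.27 and 59.08 TPM in SNU1079 and 21.24 and 115.09 TPM in SSP25 (adjusted p = 0.0766, limma). HIST1H2BC went from 7.19 to 55.18 and from 9.43 to 44.15 TPM, and HIST1H2BG from 4.08 to 18.74 and from 1.65 to 14.39 TPM. HIST1H2BK was the most abundant of the H2B genes named here in the BETp + mTORi libraries. It measured 98.56 and 152.08 TPM in SNU1079 and 197.84 and 308.76 TPM in SSP25. Its difference of 0.63 was the least of those named, while HIST1H2BN, at 0.50, differed least of all H2B genes tested.

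Of 11 H2A genes tested, 8 were higher in both lines, with a median of 1.30, and of the 7 at 1 TPM or more in both mTORi libraries 6 were higher. HIST1H2AC measured 40.83 and 110.15 TPM in SNU1079 and 60.03 and 191.76 TPM in SSP25, and HIST1H2AE 4.91 and 33.55 TPM and 6.12 and 20.73 TPM. H3 genes had a median of 1.10, with 5 of 7 higher in both lines, and H4 genes a median of 1.07, with 5 of 7. In each of these classes 2 genes were at 1 TPM or more in both mTORi libraries, and both were higher. HIST1H4H, for example, measured 3.48 and 17.92 TPM in SNU1079 and 9.61 and 31.82 TPM in SSP25. The linker histone HIST1H1E was under 1 TPM in all 4 libraries.

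Reads of several histone genes may be split with a near-identical copy, so the values of each copy are uncertain. HIST2H3A and HIST2H3C carried identical values in all 8 libraries, and the histone counts given here hold them as 2 genes wherever both were included. HIST2H2AA3 measured 8.87 TPM with mTORi and 0 with BETp + mTORi in SNU1079 but 20.22 and 197.61 TPM in SSP25, while its copy HIST2H2AA4 measured 32.06 and 347.07 TPM in SNU1079 and 63.44 and 150.20 TPM in SSP25. Summed, the pair measured 40.93 and 347.07 TPM in SNU1079 and 83.66 and 347.81 TPM in SSP25, log2 differences of 3.05 and 2.04. HIST2H4A and HIST2H4B summed to 15.76 and 118.18 TPM in SNU1079 and 28.52 and 121.27 TPM in SSP25.

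By position on GRCh37, most of the histone genes lay in the cluster of chromosome 6 (the proximal part and a distal part) and the HIST2 cluster of chromosome 1. In the proximal part of chromosome 6, 12 of 14 tested genes were higher in both lines with a median of 1.32, and in the distal part 7 of 9 with a median of 0.96. In the HIST2 cluster 7 of 10 were higher in both lines, with a median of 2.13. Outside these clusters 3 genes were tested, HIST3H2A and HIST3H2BB elsewhere on chromosome 1 and HIST4H4 on chromosome 12, of which 2 were higher in both lines, with a median of 0.75. Some genes of the clusters passed the filter only through libraries with BETp, which favours higher counts and medians. Genes at 1 TPM or more in both mTORi libraries were not counted apart by cluster. HIST2H3A and HIST2H3C, with identical values, were counted as 2 genes. The tested genes HIST1H2BF and HIST1H2BG had no matched position and entered none of these counts.

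**Figure D3:**
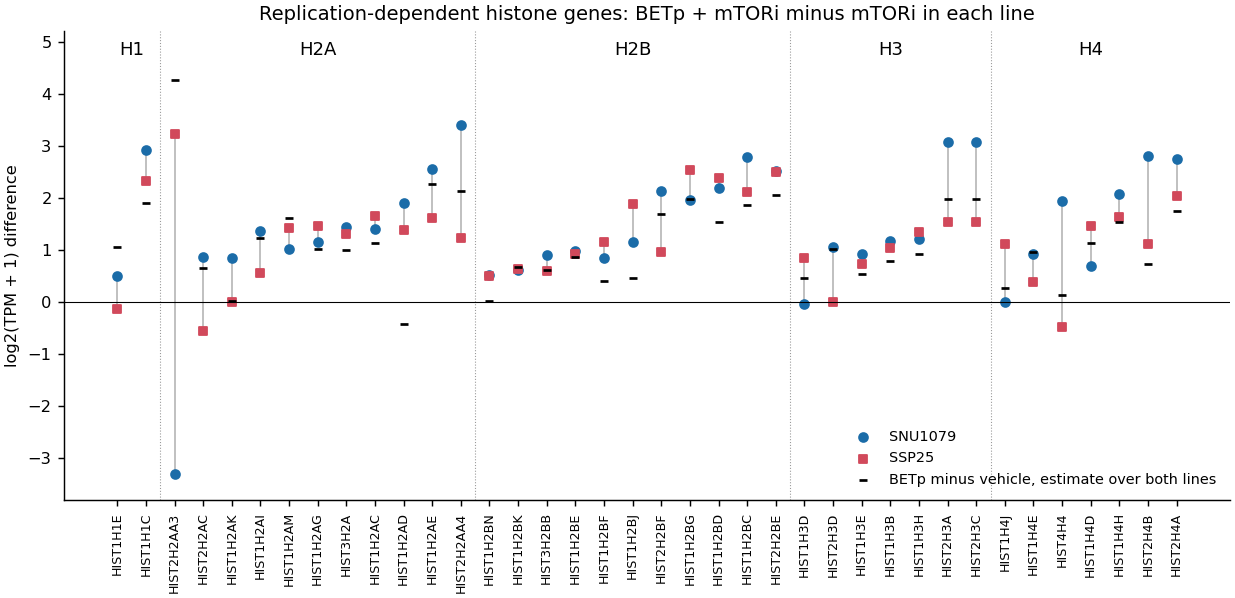
Difference in log2(TPM + 1) between BETp + mTORi and mTORi for the 38 histone genes tested, by class, in SNU1079 (circles) and SSP25 (squares), with the estimate of BETp minus vehicle as a dash. All 11 H2B genes lie above 0 in both lines, and HIST2H2AA3, a near-identical copy of HIST2H2AA4, is the gene with the widest gap between lines.

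The promoters of 3 leading histone genes are shown because these genes were higher together in both lines. Sequences are the 150 bases before the RefSeq start on GRCh38.p14, written 5′ to 3′ on the strand of the gene, for HIST1H1C (current symbol H1-2, chr6:26056471-26056620, minus strand), HIST2H2BE (H2BC21, chr1:149886683-149886832, minus strand) and HIST1H2BD (H2BC5, chr6:26157971-26158120, plus strand). Capitals mark matches on either strand to the letters CCAAT, to the TATA box letters TATAAA, to the octamer ATTTGCAT and to AAACACA.
HIST1H1C: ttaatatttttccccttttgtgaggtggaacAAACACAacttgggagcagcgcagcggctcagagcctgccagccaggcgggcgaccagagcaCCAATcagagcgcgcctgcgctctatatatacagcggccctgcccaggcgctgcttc
HIST2H2BE: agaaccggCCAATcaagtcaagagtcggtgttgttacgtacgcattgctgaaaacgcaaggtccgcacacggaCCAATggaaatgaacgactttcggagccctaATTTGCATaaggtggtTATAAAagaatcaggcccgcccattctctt
HIST1H2BD: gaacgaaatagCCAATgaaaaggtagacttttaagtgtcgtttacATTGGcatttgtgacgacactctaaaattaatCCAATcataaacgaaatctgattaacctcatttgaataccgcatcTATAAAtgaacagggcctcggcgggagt

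The same letters were searched on both strands in the 250 bases before each start. Of the 38 tested histone genes, 35 symbols matched the RefSeq promoter table, with 39 windows. CCAAT was found in 82.1% of these windows and in 32.0% of all 35116 windows. TATAAA was found in 66.7% and 10.7%, and ATTTGCAT, the octamer letters known from H2B promoters, in 35.9% and 1.63%. ATTTGCAT was in 7 of 11 H2B windows and 6 of 10 H2A windows, and CCAAT in 0 of 7 H4 windows. AAACACA, letters known from H1 promoters, was in 2 of 2 H1 windows. A match is a description of the letters and not a site of binding.

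Mitosis genes were lower in every case counted, although none was called. The list of 40 genes covers the cyclins, kinases, kinetochore proteins and motors that carry chromosomes through M phase. With BETp + mTORi, 40 of 40 were lower than with mTORi in both lines, against 38.6% of all genes tested, and 27 had an unadjusted p under 0.05 (limma). At 2-fold in both lines there were 2. The median difference was -0.84, with -0.96 in SNU1079 and -0.73 in SSP25, and the range ran from -1.17 for SPC25, a kinetochore protein, to -0.38 for BUB3, a checkpoint protein. These genes are expressed together in dividing cells, so their counts are not independent of each other.

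CCNB1, the B-type cyclin that activates CDK1 at the entry to mitosis, measured 221.17 TPM with mTORi and 98.18 TPM with BETp + mTORi in SNU1079, and 114.71 and 63.16 TPM in SSP25. PLK1, a kinase of spindle assembly, measured 74.64 and 33.98 TPM in SNU1079 and 52.86 and 27.04 TPM in SSP25 (adjusted p = 0.298, limma). TOP2A, the topoisomerase that untangles chromosomes, measured 172.16 and 74.98 TPM and 42.68 and 28.68 TPM. BIRC5, which encodes survivin of the chromosomal passenger complex, measured 71.27 and 34.04 TPM and 55.95 and 25.92 TPM. PRC1, a protein of the spindle midzone, measured 84.54 and 38.68 TPM and 83.34 and 40.07 TPM. In each of these genes the BETp + mTORi library was below the mTORi library of its line, and CCNB1, PLK1 and TOP2A were chosen after their values were seen.

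The mTORi libraries, the reference of this comparison, stood on opposite sides of vehicle in the 2 lines. Against vehicle, the median of the mitosis genes with mTORi was 0.71 in SNU1079 and -0.56 in SSP25. With BETp + mTORi it was -0.23 and -1.31, and with BETp alone -0.12 and -0.43. The summed TPM of the 40 genes in SNU1079 was 1700 for vehicle, 1570 for BETp, 2790 for mTORi and 1420 for BETp + mTORi. The corresponding sums for SSP25 were 2620, 1940, 1740 and 1020. The BETp + mTORi library was the lowest of the 4 in both lines for 34 of the 40 genes (85.0%), beside 21.9% of all genes tested. The median was -0.45 without the mTORi library of SNU1079, -0.58 without the BETp + mTORi library of SSP25, -1.10 without the BETp + mTORi library of SNU1079 and -1.25 without the mTORi library of SSP25.

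**Figure D4:**
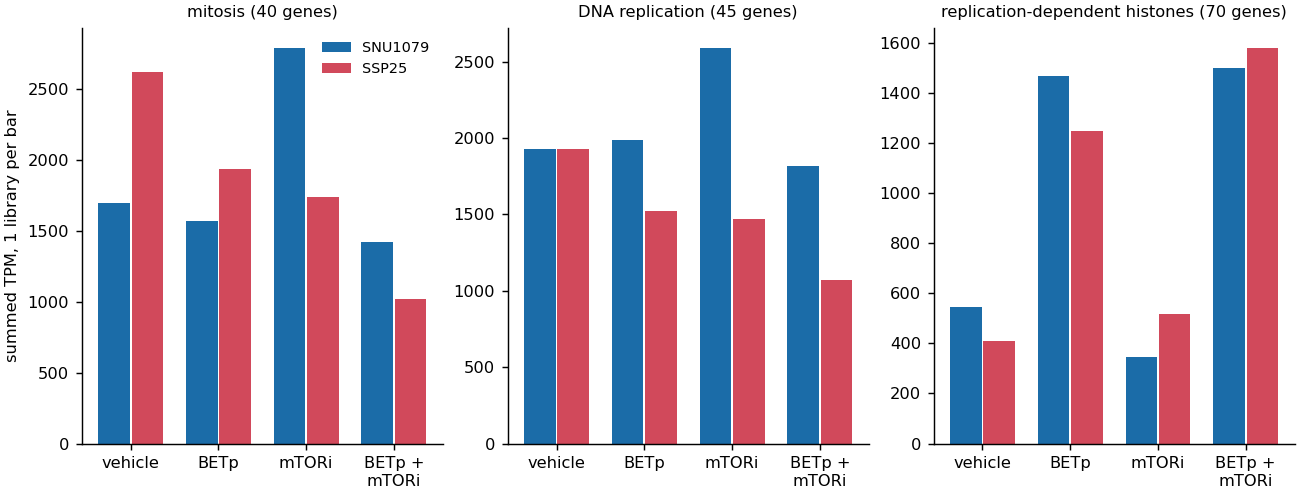
Summed TPM of 3 gene lists in each of the 8 libraries, 1 library per bar, so that no error can be drawn. For mitosis and DNA replication the mTORi bar of SNU1079 is the highest of that line and the BETp + mTORi bar is the lowest in both lines, while the histone sums are high in both BETp treatments.

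DNA replication genes were also mostly lower with BETp + mTORi than with mTORi. In SNU1079 their summed TPM was 1930 for vehicle and 1990 for BETp, so BETp alone did not stand below vehicle as it did for mitosis genes. Of 45 genes for licensing, polymerases and nucleotide supply, 44 were lower in both lines with BETp + mTORi, beside 38.6% of all genes. Of these 45, 20 had an unadjusted p under 0.05 and 0 were called by limma. Their median was -0.48, with -0.50 in SNU1079 and -0.45 in SSP25, and it was -0.29 without the mTORi library of SNU1079 and -0.73 without that of SSP25. LIG1, the ligase that joins Okazaki fragments, measured 39.82 and 24.67 TPM in SNU1079 and 11.70 and 5.10 TPM in SSP25. MCM2, a subunit of the replicative helicase, measured 78.21 and 48.54 TPM and 53.81 and 36.08 TPM. PCNA, the sliding clamp, measured 330.34 and 247.46 TPM and 138.72 and 99.13 TPM. POLE, the leading strand polymerase, was the exception, at 23.87 and 17.40 TPM in SNU1079 but 6.28 and 8.41 TPM in SSP25. Histone genes are normally expressed together with DNA replication, while here the BETp + mTORi library of each line had the highest histone sum and the lowest replication sum of its 4 libraries. The histone sum may cover only part of the histone mRNA of the cells, and 33 of the 70 genes were under 1 TPM in all 4 compared libraries. It is therefore not a measure of the histone supply of S phase.

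The promoters of CCNB2, a B-type cyclin, and PLK1 are shown from the mitosis list because its members were lower together. They are the 150 bases before the RefSeq start on GRCh38.p14, CCNB2 at chr15:59104996-59105145 and PLK1 at chr16:23678739-23678888, both on the plus strand, with CCAAT and TTTGAA in capitals. TTTGAA is the core of the CHR element known from cell cycle promoters.
CCNB2: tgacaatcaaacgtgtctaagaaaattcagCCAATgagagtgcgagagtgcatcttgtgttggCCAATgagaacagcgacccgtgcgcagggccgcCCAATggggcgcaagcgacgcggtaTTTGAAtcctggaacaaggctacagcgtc
PLK1: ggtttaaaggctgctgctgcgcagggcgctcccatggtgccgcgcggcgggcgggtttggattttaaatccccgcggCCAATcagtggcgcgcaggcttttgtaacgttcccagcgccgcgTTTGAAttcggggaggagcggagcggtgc

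In the 250 bases before the start, on both strands, CCAAT was in 77.5% and TTTGAA in 52.5% of the 40 windows of 33 matched mitosis symbols, beside 32.0% and 13.3% of all windows. No match overlapped another in the sequences shown. CCNB2 measured 50.24 and 23.55 TPM with mTORi and BETp + mTORi in SNU1079 and 45.11 and 23.37 TPM in SSP25.

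NRF2 targets were more often higher than lower, though members in both directions were measured. NRF2 is the transcription factor that turns on antioxidant and detoxifying enzymes once KEAP1 no longer holds it. Of 32 targets tested, 15 were higher and 7 lower in both lines, beside 20.0% and 38.6% of all genes tested. At an unadjusted p under 0.05 (limma) there were 10 and 3, beside 3.45% and 9.91% of all genes, and none was called. The median was 0.12, beside -0.08 over all genes. FTL, the light chain of the iron store ferritin, measured 4189.04 TPM with mTORi and 11371.50 TPM with BETp + mTORi in SNU1079, and 12386.36 and 29011.24 TPM in SSP25 (difference 1.33 ± 0.15, adjusted p = 0.0766, limma). It took 0.419% and 1.14% of all TPM in SNU1079 and 1.24% and 2.9% in SSP25. FTH1, the heavy chain, measured 6630.27 and 9689.17 TPM in SNU1079 and 33904.81 and 45783.26 TPM in SSP25, a difference of 0.49 ± 0.14 (SE).

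Several enzymes of the list measured higher in both lines. NQO1, a quinone reductase, measured 261.17 and 718.17 TPM and 926.24 and 1241.46 TPM, in SNU1079 and SSP25. TXNRD1, thioredoxin reductase, measured 287.30 and 747.71 TPM and 731.11 and 1257.83 TPM. SRXN1, which repairs oxidised peroxiredoxins, measured 69.45 and 109.29 TPM and 134.06 and 362.24 TPM, and OSGIN1 7.58 and 13.94 TPM and 37.25 and 76.96 TPM. AKR1C2, an aldo-keto reductase and also an NRF2 target, was lower, at 10.57 and 4.34 TPM in SNU1079 and 49.86 and 22.47 TPM in SSP25 (adjusted p = 0.157, limma). UGT1A6, a glucuronosyltransferase, measured 22.16 and 11.94 TPM and 86.58 and 50.42 TPM. More members of the list were higher than lower, but they did not all share a direction.

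SQSTM1 also stood in the list of lysosome and TFEB genes, where it was the only member called and the only one 2-fold higher in both lines. Of 38 such genes, 17 were higher and 7 lower in both lines, beside 20.0% and 38.6% of all genes tested. On the high side 3 had an unadjusted p under 0.05 (limma). The median was 0.08, or -0.06 without the mTORi library of SNU1079 and 0.15 without that of SSP25. MAP1LC3B, which marks autophagosomes, measured 103.75 and 128.80 TPM in SNU1079 and 107.21 and 150.56 TPM in SSP25. CTSS, a lysosomal protease, measured 84.97 and 43.06 TPM in SSP25 and was under 1 TPM in both of these libraries of SNU1079. HMOX1, the heme oxygenase that releases iron, measured 80.61 and 111.48 TPM and 44.37 and 65.73 TPM.

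Of 34 cytokines and chemokines tested, 16 were lower and 3 higher in both lines, beside 38.6% lower and 20.0% higher of all genes tested, 11 were lower at an unadjusted p under 0.05 and none was called by limma. The median was -0.41, with -0.26 in SNU1079 and -0.40 in SSP25, and 4 were 2-fold lower in both lines (0.243% of all genes). CCL2, which attracts monocytes, measured 62.93 and 26.46 TPM in SNU1079 and 16.51 and 1.62 TPM in SSP25. CSF2, which encodes GM-CSF, measured 20.00 and 8.05 TPM and 96.59 and 22.19 TPM. CCL26, a ligand of CCR3, measured 5.99 and 1.10 TPM and 38.34 and 15.28 TPM. IL6 was near 0.5 TPM in SNU1079 and measured 70.35 and 28.95 TPM in SSP25, and HBEGF, a ligand of the EGF receptor, was higher, at 57.15 and 81.13 TPM and 7.07 and 9.25 TPM.

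Of 19 genes often lowered by BET inhibitors in other cells, 12 were lower and 3 higher in both lines. These counts stand beside 38.6% and 20.0% of all genes tested, and the median was -0.45. MYC, the best known of them, measured 148.94 and 124.33 TPM in SNU1079 and 44.28 and 43.84 TPM in SSP25, a difference of -0.14 ± 0.11 (adjusted p = 0.599, limma). HEXIM1, often used as a marker of BET inhibition, measured 73.25 and 86.59 TPM and 15.86 and 13.12 TPM, higher in one line and lower in the other.

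Of the drug targets described, BRD2 had the largest difference of the same sign in both lines, at 133.51 and 166.20 TPM in SNU1079 and 111.19 and 176.92 TPM in SSP25, a difference of 0.49 ± 0.11 (adjusted p = 0.202, limma). BRD3 measured 14.17 and 11.20 TPM in SNU1079 and 11.37 and 20.09 TPM in SSP25, and BRDT was listed at 0 in all libraries. CRBN, cereblon itself, measured 20.54 and 19.76 TPM and 20.48 and 17.30 TPM. The cereblon ligase list had 13 of 21 genes lower and 4 higher in both lines, beside 38.6% and 20.0% of all genes. Its median was -0.11, close to the -0.08 of all genes. MTOR measured 9.21 and 9.45 TPM and 22.52 and 22.30 TPM. Elongation control genes, which include CDK9 and the 7SK complex that holds it inactive, had a median of 0.02 over 21 genes.

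Among genes of the mTOR pathway, 17 of 34 complex members and effectors were lower and 3 higher in both lines, with a median of -0.06. Of all genes tested, 38.6% were lower and 20.0% higher, with a median of -0.08, so these members did not stand below the rest. Of 16 brakes on mTOR, 6 were lower and 4 higher. DDIT4, a stress-induced brake on mTORC1, measured 30.62 and 20.56 TPM in SNU1079 and 26.66 and 15.36 TPM in SSP25 (difference -0.66 ± 0.16, adjusted p = 0.213, limma). TSC2, the GTPase-activating protein that switches off RHEB, measured 33.96 and 37.00 TPM and 22.77 and 35.95 TPM. Ribosomal protein genes, whose translation mTOR controls, were lower in both lines for 63 of 79, beside 38.6% of all genes. Their median of -0.13 was small and close to the -0.08 of all genes. RPL6 measured 1833.12 and 1418.14 TPM and 1226.54 and 984.21 TPM.

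Enzymes of serine, glycine and one-carbon (SGOC) metabolism, which turn glucose-derived serine into one-carbon units for nucleotides and methylation, had a lower median in SNU1079 than in SSP25, a difference that was not tested. The study chose this pathway on these same samples, so its list gives no independent evidence of a direction. Of 30 tested, 15 were lower and 5 higher in both lines (38.6% and 20.0% of all genes), 7 and 1 had an unadjusted p under 0.05, and none was called by limma. The median was -0.19, with -0.26 in SNU1079 and -0.10 in SSP25. Without either the mTORi or the BETp + mTORi library of SNU1079 it was -0.08, the median of all genes. PSAT1, the aminotransferase of serine synthesis, measured 109.13 and 49.33 TPM in SNU1079 and 67.10 and 67.84 TPM in SSP25 (difference -0.56 ± 0.32, adjusted p = 0.49, limma). PSPH, the last step of serine synthesis, measured 116.56 and 76.72 TPM in SNU1079 but 16.80 and 19.56 TPM in SSP25. PHGDH, the first step, was under 1 TPM in all libraries of SNU1079 and measured 24.41 and 18.48 TPM in SSP25. For PSAT1 and PHGDH most of the way down from vehicle in SSP25 was already seen with mTORi alone, since vehicle libraries held 254.14 and 85.53 TPM.

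Other members of this pathway had the same sign in both lines. MTHFD2, a mitochondrial folate enzyme, measured 87.87 and 45.86 TPM in SNU1079 and 66.14 and 48.79 TPM in SSP25 (adjusted p = 0.227, limma). SHMT2, which splits serine into glycine and a one-carbon unit, measured 112.05 and 78.27 TPM and 136.60 and 103.55 TPM. CBS, the first enzyme of transsulfuration, measured 21.11 and 7.69 TPM and 64.60 and 51.27 TPM. CTH, the next enzyme of that route, was higher in both lines, at 1.86 and 3.40 TPM and 13.46 and 18.29 TPM.

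Genes regulated by ATF4, the transcription factor of amino acid stress that also drives serine synthesis genes, likewise had a lower median in SNU1079 than in SSP25, a difference that was not tested. ATF4 measured 351.91 and 254.56 TPM in SNU1079 and 358.10 and 313.50 TPM in SSP25. Of 32 stress response genes, 15 were lower and 8 higher in both lines, beside 38.6% and 20.0% of all genes tested. The median was -0.36 in SNU1079 and -0.05 in SSP25. For 20 cytosolic tRNA synthetases, which load amino acids onto tRNA, it was -0.48 and -0.06, with 12 lower and 0 higher in both lines. ASNS, asparagine synthetase, measured 102.14 and 53.43 TPM in SNU1079 but 37.37 and 54.34 TPM in SSP25. NUPR1, a chromatin-bound stress protein, was lower in both, from 95.68 to 49.81 and from 121.59 to 54.79 TPM (adjusted p = 0.0766, limma). TXNIP, which blocks glucose uptake, was higher, from 51.23 to 76.97 and from 45.56 to 93.92 TPM.

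Interferon response genes were lower in SSP25 and had no common direction in SNU1079. Of 33 tested, 32 were lower in SSP25 and 12 in SNU1079, 17 were 2-fold lower in SSP25 and 0 in SNU1079, and 17 had opposite signs. The medians were -1.03 in SSP25 and 0.0 in SNU1079, and with 1 library per line and treatment the difference between lines was not tested. Over both lines the median was -0.41, and it was -0.75 or -0.74 without the mTORi or BETp + mTORi library of SNU1079 and -0.13 or -0.06 without that of SSP25. IFIT1, a sensor of viral RNA, measured 3.07 and 7.69 TPM in SNU1079 and 10.39 and 4.0 TPM in SSP25. ISG15, a ubiquitin-like modifier, measured 39.62 and 94.71 TPM in SNU1079 and 154.08 and 112.18 TPM in SSP25. IFITM1, which restricts viral entry, measured 1.43 and 0.83 TPM and 6.55 and 0.38 TPM. Against vehicle, the median of the list in SSP25 was -0.59 with BETp, -0.19 with mTORi and -1.04 with both.

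Genes of the mitochondrial genome were higher for 13 of 13 in both lines, beside 20.0% of all genes, with a median of 0.29. After quantile normalization the median was 0.12, and it was also 0.12 without the mTORi library of SNU1079, 0.19 without the BETp + mTORi library of SSP25 and 0.47 without the mTORi library of SSP25. MT-ND5, a subunit of complex I, measured 1941.29 and 2741.61 TPM in SNU1079 and 1625.98 and 1963.09 TPM in SSP25. Endoplasmic reticulum chaperones, by contrast, were lower for 15 of 21 in both lines, beside 38.6% of all genes. Their median was -0.26 (-0.13 without the mTORi library of SSP25), and 10 were lower at an unadjusted p under 0.05 (limma). SDF2L1, a partner of the chaperone BiP, measured 20.21 and 13.25 TPM in SNU1079 and 32.74 and 21.67 TPM in SSP25, and XBP1, a transcription factor of the unfolded protein response, 43.43 and 26.91 TPM and 106.03 and 78.89 TPM. Cholesterol and fatty acid synthesis genes were lower for 18 of 34 and higher for 6, beside 38.6% and 20.0% of all genes. Their median was -0.16, or -0.06 without the BETp + mTORi library of SNU1079. FADS1, a fatty acid desaturase, measured 37.11 and 22.48 TPM and 57.94 and 30.60 TPM.

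Of 16 BCL2 family genes, which control cell death, 6 were lower and 2 higher in both lines, near the 38.6% and 20.0% of all genes, with a median of -0.16 (-0.06 without the mTORi library of SSP25) and 0 at an unadjusted p under 0.05. Of 24 p53 targets, 7 were lower and 5 higher. CDKN1A, the inhibitor p21 of cyclin-dependent kinases, measured 359.98 and 412.05 TPM in SNU1079 and 61.11 and 114.22 TPM in SSP25 (difference 0.54 ± 0.30, adjusted p = 0.472, limma). CFLAR, which blocks caspase-8, was lower in both lines, at 44.59 and 28.68 TPM and 25.14 and 15.56 TPM (adjusted p = 0.184, limma). CCND1, the cyclin of G1, measured 516.33 and 523.18 TPM and 59.24 and 76.26 TPM. Over 19 caspases and inhibitors of apoptosis the median was -0.02.

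Biliary identity genes had no common direction, with 6 of 16 lower and 4 higher in both lines, beside 38.6% and 20.0% of all genes. EPCAM, an epithelial adhesion protein, measured 100.90 and 59.73 TPM in SNU1079 and 1.51 and 1.02 TPM in SSP25. SOX9, a transcription factor of bile duct cells, measured 5.81 and 8.52 TPM and 19.62 and 23.50 TPM, and KRT8, an epithelial keratin, 1725.52 and 2102.33 TPM and 753.41 and 830.20 TPM. Of the fibroblast markers, COL1A1 measured 599.11 and 272.22 TPM in SNU1079 and 1.29 and 0.91 TPM in SSP25, while DCN was listed at 0 in these 4 libraries. Summed, the fibroblast markers gave 600 and 274 TPM (SNU1079) and 27.4 and 11.1 TPM (SSP25). COL1A2, COL3A1, DCN and LUM were under 1 TPM in both of these libraries of SNU1079. All libraries came from cultured cell lines and not from mixed tissue.

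**Figure D5:**
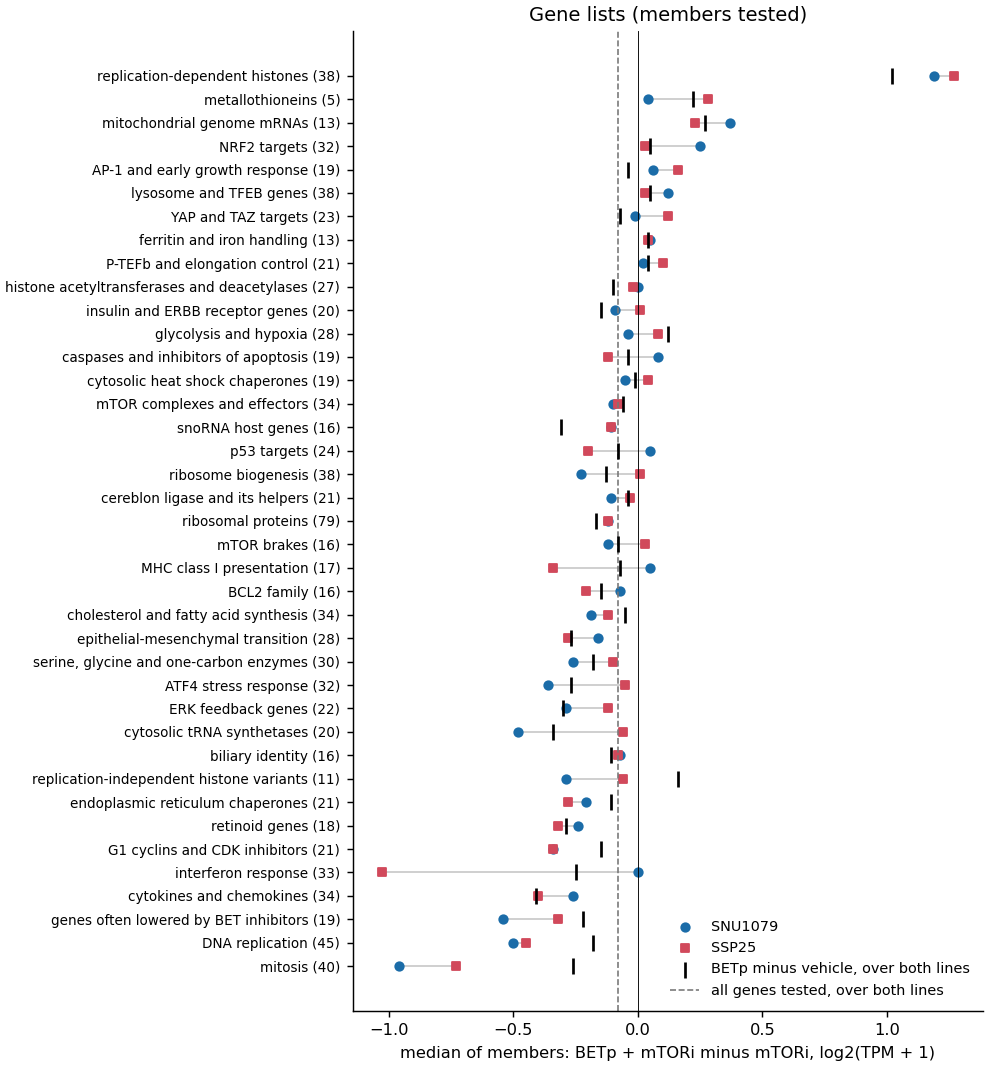
Median difference in log2(TPM + 1) between BETp + mTORi and mTORi for gene lists with at least 5 tested members (number in brackets), in SNU1079 (circles) and SSP25 (squares), with the median of BETp minus vehicle as a tick and the median of all genes as a dashed line. Histones have the highest medians and mitosis genes, apart from the interferon list in SSP25, the lowest, and the gap between lines is widest for interferon genes.

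Whether BETp acted otherwise with mTORi than without it was tested as the difference of the 2 BETp effects, which share no library. No gene was called by limma (0.0%), and 322 of 16060 (2.0%) had an unadjusted p under 0.05. Across genes the 2 effects had a correlation of 0.49, a description only. The mitosis genes had a median effect of -0.26 for BETp over vehicle and -0.84 over mTORi. Their median difference was -0.58, with 1 of 40 genes at an unadjusted p under 0.05 (limma). In SNU1079 their medians were -0.12 over vehicle and -0.96 over mTORi, and in SSP25 -0.43 and -0.73. For DNA replication genes the median difference was -0.31, with medians of 0.01 and -0.50 in SNU1079 and -0.39 and -0.45 in SSP25. Members of each list are expressed together and are not independent observations. For histone genes the effects were 1.02 and 1.25, and the difference was positive in most but not all, negative for 12 of 38. SQSTM1 differed by 0.22 (unadjusted p = 0.145, limma) and HIST1H1C by 0.71 (unadjusted p = 0.0409, limma) between the BETp effects. Neither passed the test after adjustment.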

How the data were processed

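RNA was sequenced from 8 cultures, 1 per treatment and CCA cell line, in strand-specific libraries (dUTP method). Per the labels the genome build was GRCh37, and the submitters' processing notes name DESeq2 and edgeR, while for the aligner and annotation no name is given in the sources used here. The authors deposited TPM values, 1 table per line with 56269 genes each. Depth is not kept by TPM, so no counting interval is given and a count model was not used.

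Values were taken as log2(TPM + 1) for the 16060 genes that reached 1 TPM in 2 or more libraries. limma 3.58.1 in R 4.3.3 (lmFit, eBayes with trend) was fitted to all 8 libraries with treatment and cell line as terms, 3 residual degrees of freedom. The trend over all genes added 4 prior degrees of freedom. BETp + mTORi was contrasted with mTORi, and this effect with BETp minus vehicle. Two-sided p-values were adjusted by Benjamini-Hochberg over all genes, with calls under 0.05. Pairing comes from the cell line. Over genes, the difference between the lines under mTORi had a correlation of 0.929 with that under BETp + mTORi. Lines that differ give a high value here, so it is no test of the pairing. The model was tested on simulated data. Tables were prepared in Python 3.11.15 with pandas 2.3.3.

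The comparison and the 44 gene lists were chosen with earlier results of these data known. Named genes were drug targets and reporters, the 12 genes of largest difference shared by both lines in each direction (mean of at least 5 TPM, called genes first, clone names, pseudogene symbols and a fixed set of small RNA prefixes, which holds neither vault RNAs nor lncRNA segments, left out: 2 higher, 1 lower), the 2 furthest members of each list in each direction, 3 genes of opposite sign in each direction, and 3 of smallest p in each direction for the difference of effects. Other members are named as examples chosen after their values were seen. Positions are those of GENCODE 44 on GRCh37 (261 of 273 genes matched) and promoters those of RefSeq on GRCh38.p14. The alternatives used quantile normalization, a filter at 5 TPM, no filter, a pseudocount of 0.1, rescaling without mitochondrial genes, robust eBayes, no block, the 4 libraries alone, and leaving out each library. Some genes are not reported here.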

Additional observations from a re-analysis of the deposited data

Results flagged for a closer look

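With 1 library per line and treatment, a difference of opposite sign in the 2 lines is reported here where both sides reached 0.2 (genes) or 0.05 (list medians) on the log2(TPM + 1) scale. None of these differences between lines was tested.

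Several lists had opposite medians. The BET family, with 3 genes tested, was at -0.31 in SNU1079 and 0.67 in SSP25. MHC class I presentation genes, which load peptides for T cells, were at 0.05 in SNU1079 and -0.34 in SSP25. p53 targets were at 0.05 and -0.20, and caspases and inhibitors of apoptosis at 0.08 and -0.12.

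Among genes of amino acid metabolism, 3 with opposite signs are given, while others had the same sign in both lines. ASNS differed by -0.92 in SNU1079 and 0.53 in SSP25. CHAC1, which breaks down glutathione, differed by -0.73 and 0.22. PSPH differed by -0.60 and 0.21.

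The interferon genes IFIT1 and ISG15 and the cytokine gene LIF were higher in SNU1079 and lower in SSP25. IFIT1 differed by 1.09 in SNU1079 and -1.19 in SSP25. ISG15 differed by 1.24 and -0.45. LIF, a cytokine of the interleukin-6 family, differed by 0.63 and -0.43.

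Among genes of chromatin and replication, BRD3 differed by -0.31 in SNU1079 and 0.77 in SSP25, HEXIM1 by 0.24 and -0.26, and POLE by -0.43 and 0.37. HIST2H2AC differed by 0.86 and -0.56, at levels between 0.38 and 1.61 TPM. HIST2H2AA3 differed by -3.30 and 3.23, while the sum with its near-identical copy HIST2H2AA4 differed by 3.05 and 2.04.

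Several non-coding RNA entries also had opposite differences. TP53TG1_1 differed by 3.61 in SNU1079 and -4.64 in SSP25, and was listed at 0 in 5 of the 8 libraries. TP53TG1_2 differed by -1.70 and 1.86. PVT1_1 differed by 2.04 and -3.01, and ARAP1-AS1 by 3.86 and -1.71. An antisense transcript known by its clone name differed by -1.44 and 5.69, and was listed at 0 in the vehicle and mTORi libraries of SSP25.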

How the results depend on the processing

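The 2 calls depended on the settings. limma called 0 genes with the 4 libraries alone (2144 at an unadjusted p under 0.05), without a filter (2444), with a pseudocount of 0.1 (2199), with quantile normalization (2013) and with robust eBayes (1920), 2 with rescaling, and 8 with a filter at 5 TPM (6 higher, 2 lower), where fewer genes were tested. The pairing comes from the cell line, and without the block 0 genes were called (107 at an unadjusted p under 0.05). With 1 library left out, where its arm keeps 1 library assumed to vary like the others, the calls ran from 0 to 5: 5 without the mTORi library of SSP25, 0 without that of SNU1079 or without either BETp + mTORi library, 1 without either BETp library and 2 without either vehicle library. Genes at least 2-fold apart in both lines (88) were 350 with a pseudocount of 0.1 (149 higher, 201 lower), and quantile normalization split 90 into 60 higher and 30 lower. That count cannot be made with a compared library left out. For the difference of BETp effects (0 called), robust eBayes called 1 gene and leaving out libraries 0 to 1. The cause was not tested. Of 40 lists with a median, 10 changed its sign with 1 library left out: the BET family (-0.20 to 0.60), MHC class I (-0.35 to 0.02), elongation control (-0.02 to 0.07), caspases (-0.14 to 0.04), glycolysis (-0.06 to 0.09), lysosome (-0.06 to 0.15), mTOR brakes (-0.25 to 0.01), histone variants (-0.32 to 0.03), and acetyltransferases and insulin receptor genes, both within 0.05 of 0.

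Of 114 named genes, 21 changed sign with some library left out and 3 under other settings. HEXIM1 was at 0.10 with quantile normalization and 0.04 with rescaling, IFIT1 at 0.11 and 0.0, and POLE at 0.05 and 0.01. With 1 library left out HEXIM1 ran from -0.20 to 0.18, IFIT1 from -0.87 to 0.78, POLE from -0.41 to 0.35, ARAP1-AS1 from -1.18 to 3.32, ASNS from -0.82 to 0.42, HIST2H2AA3 from -2.68 to 2.61, HIST2H2AC from -0.37 to 0.67, ISG15 from -0.33 to 1.11, LIF from -0.29 to 0.49, BRD3 from -0.20 to 0.66, MTOR from -0.10 to 0.12, PHGDH from -0.91 to 0.38, PVT1_1 from -2.26 to 1.29, the antisense transcript from -0.86 to 5.11, TP53TG1_1 from -4.01 to 2.99, TP53TG1_2 from -1.54 to 1.70, CHAC1 from -0.67 to 0.16, PSAT1 from -1.20 to 0.08, PSPH from -0.59 to 0.20, CD68 from -0.34 to 0.09 and IL6 from -1.33 to 0.14. Depth is unknown, so what it limits cannot be given.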

Other observations

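Immediate early genes of the AP-1 group, transcription factors that respond to growth and stress signals, were more often higher than lower with BETp + mTORi. Of 19 tested, 10 were higher and 3 lower in both lines, beside 20.0% and 38.6% of all genes. At an unadjusted p under 0.05, 6 were higher, and 0 were called by limma. EGR1 measured 2.96 and 7.22 TPM in SNU1079 and 0.29 and 1.79 TPM in SSP25, and JUND 150.33 and 226.86 TPM and 72.06 and 118.41 TPM. YAP and TAZ targets, genes of the Hippo pathway, were higher for 9 of 23 and lower for 8, so the list had no common direction. CTGF measured 38.23 and 52.93 TPM in SNU1079 and 10.14 and 26.63 TPM in SSP25, and CYR61 347.93 and 509.70 TPM and 253.42 and 467.96 TPM. Genes that limit ERK signalling were lower for 11 of 22 and higher for 4, beside 38.6% and 20.0% of all genes. Their median was -0.20, or -0.09 without the mTORi library of SNU1079. DUSP10, a phosphatase of stress kinases, measured 101.33 and 47.15 TPM in SNU1079 and 58.92 and 40.45 TPM in SSP25.

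Genes of the epithelial-mesenchymal transition were lower for 18 of 28 and higher for 1 in both lines, beside 38.6% and 20.0% of all genes. THBS1, a secreted matrix protein, measured 425.48 and 276.17 TPM in SNU1079 and 143.00 and 75.28 TPM in SSP25, and MMP7, a matrix protease, 107.15 and 68.21 TPM and 27.31 and 7.05 TPM. Retinoid genes were lower for 10 of 18 and higher for 0, beside the same shares of all genes. ALDH1A3, which makes retinoic acid, measured 79.94 and 49.68 TPM and 83.64 and 47.71 TPM. Glycolysis and hypoxia genes had a median of 0.01. ALDOA, a glycolytic aldolase, measured 1142.02 and 1341.11 TPM in SNU1079 and 2560.84 and 3931.29 TPM in SSP25.

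For the difference between the BETp effects with and without mTORi, AL109927.1 had the smallest p among negative differences of genes with a mean of at least 5 TPM over the 8 libraries. In SNU1079 it measured 3.19 TPM in the vehicle library, 10.66 after BETp, 30.93 after mTORi and 14.98 after both drugs. The SSP25 values were 11.16, 25.87, 51.20 and 32.08 TPM, so BETp went with a higher value over vehicle and a lower one over mTORi in each line (difference of effects -2.14, adjusted p = 0.636, limma). HN1 had a difference of -0.52, and SYNJ2BP-COX16, a read-through transcript, -1.73. ATF3, a stress transcription factor picked after its values were seen, measured 37.74 and 53.43 TPM with mTORi and BETp + mTORi in SNU1079 and 6.92 and 13.73 TPM in SSP25, with vehicle and BETp at 39.36 and 39.92 TPM and at 10.53 and 11.02 TPM (difference of effects 0.65, unadjusted p = 0.0223, limma). None of these genes was called.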
